A study of Mus musculus with 6 samples.

Results

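The genes described here handle heme and iron: 9 genes, Hmox1, Hmox2, Blvra, Blvrb, Fth1, Tfrc, Slc40a1, Alas1 and Fech, out of 18193 genes measured in mouse lens. They were taken by name, with every probe set annotated to them, which gave 17 of 45037 probe sets and 3 further Tfrc probe sets among the array's controls. Hmox1 was chosen by its measured difference between the genotypes on these arrays, and the others for their place in the pathway. The members' differences are therefore a description, and no p-value of a single member is printed. Where members are said to pass a test or not, this is a description as well. Whole lenses were taken from Balb/c mice 2 days old, and RNA of 3 transgenic and 3 wild-type samples went onto 1 Affymetrix array per sample. The labels name neither the transgene nor the promoter or cell type that drives it. According to the design text, 12 lenses per genotype served 3 replicates; how they were divided is not said. Nothing states that replicates came from separate animals, so p-values reflect how these 6 samples spread, and that spread could be technical. Arrays are called T1 to T3 (transgenic) and W1 to W3 (wild-type).

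Heme, an iron-holding ring, is made in a chain of enzyme steps that begins and ends in mitochondria. ALAS1 runs the first step and ferrochelatase, the product of Fech, puts iron into the ring in the last. Heme oxygenases open the ring, which yields biliverdin, carbon monoxide and free iron. Biliverdin reductases then turn biliverdin into bilirubin, ferritin stores iron, the transferrin receptor brings it into the cell and ferroportin lets it out. The lens has no blood vessels of its own, but in the newborn it is still wrapped in a transient vascular net that carries macrophages. Its fiber cells lose their mitochondria, nuclei and other organelles as they mature.

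On the log2 scale of the arrays, medians per array lay between 5.29 and 5.37 before normalization, and precision is limited by having 3 arrays a group. Foxe3, a forkhead factor gene of the lens epithelium, averaged 13.38 ± 0.04 on the transgenic arrays and 8.74 ± 0.17 on the wild-type arrays (SD, n = 3 each). It was 24.9-fold higher in transgenic lenses (limma adjusted p = 2.07e-06) and separated the arrays by their labels. Of 13 lens markers, 12 were measured, all above the median of all probe sets, 5.34. At a limma adjusted p under 0.05, 1 of the 12 was higher (Foxe3) and 1 lower, beside 1.93% and 2.61% of all genes. The lower marker was Bfsp1, which fell by 1.66 (limma adjusted p = 0.000406). Differences were above 0 for 6 of the 12 and below 0 for 6, with a median of 0.015. T3 stood apart. Its summed linear signal over 8 skin markers was 27006, against 1770 to 1944 on the other transgenic arrays and 1763 to 2841 on the wild-type arrays. Over 8 skeletal muscle markers it was 7069, against 330 to 361 on the other transgenic arrays and 338 to 492 on the wild-type arrays.

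Among the 9 genes, Hmox1 was 4.73-fold lower in transgenic lenses and the next largest difference, taking each gene's brightest probe set, was Tfrc's at 0.45 on the log2 scale. Tfrc was 1.37-fold higher and Fech 1.16-fold higher, with no overlap between the groups. The other 6 genes differed by -0.13 to 0.10, and their groups overlapped. With limma's test, adjusted by Benjamini-Hochberg across all genes and called under 0.05, 1 of the 9 passed downward and 1 upward, where 2.61% and 1.93% of all 18193 genes did (475 and 352 genes, or 673 and 254 with a common median). Groups did not overlap for 3 of the 9 genes, where they did not for 28.8% of all genes. Nothing is read from these shares, since the members were chosen with the comparison in view. Over the 9 genes the median difference was 0.060, beside 0.011 over all genes.

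**Figure D1:**
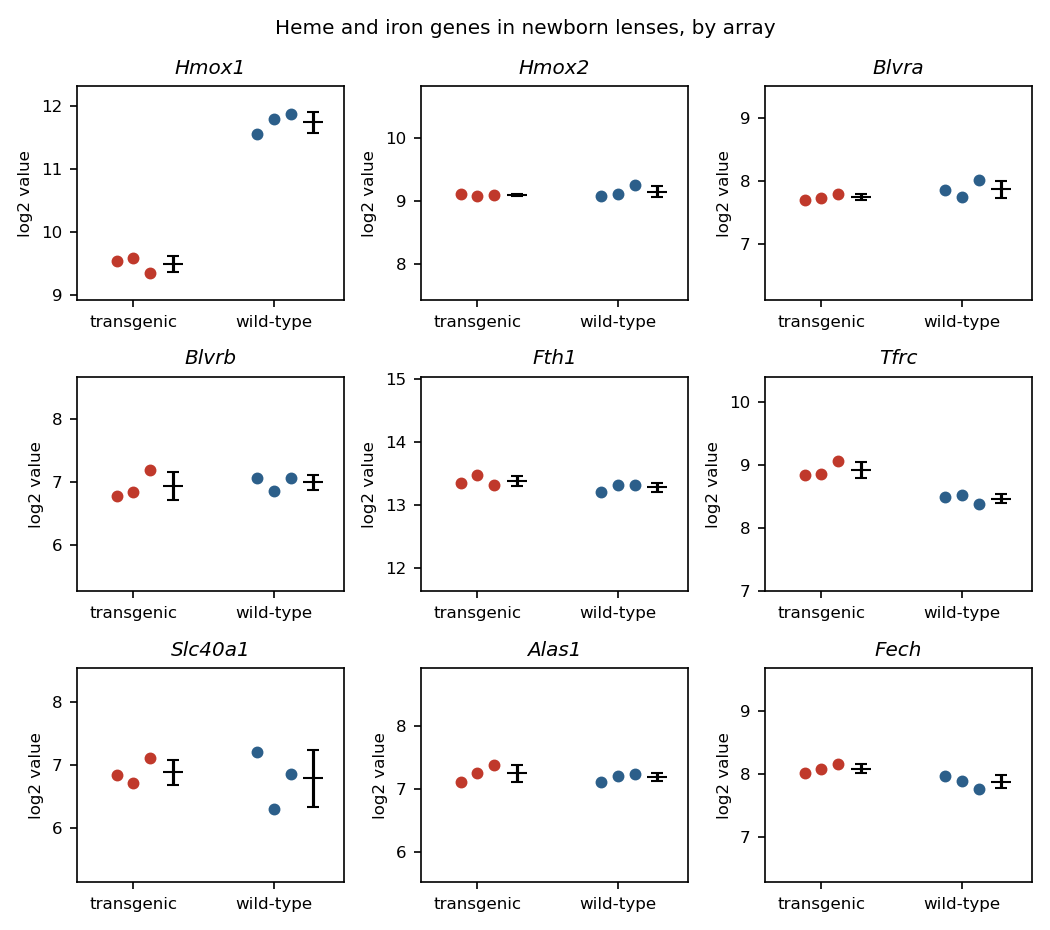
Log2 value of the brightest probe set of each of the 9 genes (vertical axes, each spanning the same range of log2 units) on 3 transgenic arrays, left, and 3 wild-type arrays, right. Points are arrays and the bar beside them is the mean with its SD. Hmox1 lies between 9.35 and 9.59 on transgenic arrays and between 11.55 and 11.86 on wild-type arrays, while only Tfrc and Fech of the others show groups that do not overlap.

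Hmox1 encodes heme oxygenase 1, the inducible form of the enzyme that opens heme. It stood at 9.53, 9.59 and 9.35 on T1, T2 and T3, against 11.55, 11.79 and 11.86 on W1, W2 and W3 (log2 values). All transgenic arrays lay under all wild-type arrays, with a gap between the groups far wider than the spread within either. The means were 9.49 ± 0.12 in transgenic and 11.73 ± 0.16 in wild-type lenses (SD, n = 3 each), a difference of -2.24 ± 0.11 (SE). Among all 18193 genes, sorted from the most negative difference, Hmox1 stood at place 12. Hmox1 has a single probe set here, so no second one can be set beside it. Both groups lay well over the arrays' upper quartile, 7.12. The difference ran from -2.33 to -2.17 with any 1 array left out. In bulk RNA of whole lenses, fewer cells that hold a transcript and less of it per cell cannot be told apart, here and for every gene below.

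Hmox2 encodes heme oxygenase 2, the constitutive form. It stood at 9.12, 9.09 and 9.10 on the transgenic arrays, against 9.09, 9.11 and 9.26 on the wild-type arrays. The groups overlapped, and the difference was -0.050 ± 0.083 (SE). The value of W3 was the highest of the 6. Whether the changes of Hmox1 and Hmox2 differ from each other was not tested.

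The biliverdin reductases, which act on the product of heme oxygenase, overlapped between the groups. Blvra, for the form that acts on adult biliverdin, stood at 7.70, 7.74 and 7.79 in transgenic lenses, against 7.85, 7.75 and 8.01 in wild-type lenses. Its difference was -0.13 ± 0.09 (SE), and W2 lay within the transgenic range. Blvrb, for the form known from fetal heme breakdown and as a flavin reductase, stood at 6.77, 6.84 and 7.18 in transgenic lenses, against 7.06, 6.85 and 7.06 in wild-type lenses. T3, the array with skin and muscle transcripts, was the highest for Blvrb. Its difference was -0.060 ± 0.13 (SE) with all arrays, -0.19 without T3 and 0.020 without T1.

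Fth1 encodes the ferritin heavy chain, the subunit that oxidises iron so that it can be stored. Its brighter probe set stood at 13.34, 13.47 and 13.31 in transgenic lenses, against 13.20, 13.31 and 13.31 in wild-type lenses. These values lie near the top of the arrays' range, and T3, W2 and W3 hold the same normalised value. The second probe set stood at 12.32, 12.26 and 12.15 in transgenic lenses, against 12.17, 12.12 and 12.08 in wild-type lenses. The differences were 0.10 ± 0.09 and 0.12 ± 0.09 (SE), and on both probe sets the groups overlapped. The ferritin light chain gene Ftl1 was not measured as a single gene here.

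Tfrc encodes the transferrin receptor, through which most cells take up iron. Its brightest probe set stood at 8.84, 8.85 and 9.06 in transgenic lenses, against 8.49, 8.52 and 8.39 in wild-type lenses. The transgenic arrays all lay above the wild-type arrays, with T3 the highest. The difference was 0.45 ± 0.09 (SE), and 0.38 without T3. Tfrc was the member that passed the threshold upward. The call was lost with any 1 array left out and with a replicate block. It was also lost without quantile normalization, with medians set equal, and with the mean of its probe sets.

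The other probe sets of Tfrc gave smaller differences. The second stood at 7.32, 7.08 and 7.21 in transgenic lenses, against 7.01, 6.99 and 6.98 in wild-type lenses, a difference of 0.21 ± 0.09 (SE) without overlap. The third lay below the median of all probe sets and differed by 0.15 ± 0.13 with overlapping groups. The array also carries Tfrc as a control for RNA integrity, with separate probe sets for the 3′ end, the middle and the 5′ end of the transcript. On the values as deposited, the 3′ set stood at 5.92, 5.82 and 5.94 in transgenic lenses, against 5.73, 5.79 and 5.67 in wild-type lenses, a difference of 0.16 without overlap. The middle set, at means of 3.97 and 4.12, and the 5′ set, at 4.48 and 4.60, lay below the median and differed by -0.16 without overlap and by -0.13 with overlapping groups.

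The distance from the 3′ to the 5′ set, a measure that grows as RNA breaks down, was 1.60, 1.36 and 1.29 on T1, T2 and T3, against 0.95, 1.31 and 1.11 on W1, W2 and W3. T1 and T2 had the highest values, and T3 lay under W2. Its part in the Tfrc difference was not tested.

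Slc40a1 encodes ferroportin, the iron exporter, which is known for its high level in macrophages that recycle iron. It stood at 6.84, 6.71 and 7.11 in transgenic lenses, against 7.20, 6.31 and 6.85 in wild-type lenses. The wild-type arrays held both the highest and the lowest value, and the difference was 0.098 ± 0.22 (SE). A second probe set stood at 6.61, 6.35 and 6.68 in transgenic lenses, against 6.80, 5.85 and 6.14 in wild-type lenses, with a difference of 0.28 ± 0.22. With any 1 array left out, the difference of the first probe set ran from -0.14 to 0.31. Among the brightest probe sets of the 9 genes it had the largest SD within a group, 0.45 over the wild-type arrays. Over all member probe sets the second of Fech had a larger one, 0.50 over the transgenic arrays, as had the second of Slc40a1, 0.49 over the wild-type arrays.

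A macrophage score and the brighter Slc40a1 probe set ran in the same order over the arrays. The score, the median over 12 markers of each marker's deviation from its own mean, was -0.048, -0.066 and 0.14 on T1, T2 and T3, against 0.22, -0.22 and 0.014 on W1, W2 and W3. Both ran W1, T3, W3, T1, T2 and W2 from the top. The summed signal of the same markers ran W1, T3, T2, W3, T1 and W2, and the second Slc40a1 probe set W1, T3, T1, T2, W3 and W2. Of 72 pairings of a member with a marker list, this was the only one with the same order, and it was noticed after the values were seen. A like score over 8 endothelial markers was also highest on W1 (0.35) and lowest on W2 (-0.28). Pearson r with the brighter Slc40a1 probe set was 0.98 for the macrophage score and 0.73 for the endothelial score. For the other lists it ran from -0.47 to 0.46. Of the 12 markers, 9 lay above the median of all probe sets and 0 passed limma's test between genotypes. At an unadjusted p under 0.05 in limma there were 0 of 12, beside 22.4% of all genes. Summed over the list, linear signal ran from 1070 to 1352 in transgenic and from 878 to 1383 in wild-type lenses. For Hmox1, Pearson r was -0.097 with the macrophage score and 0.19 with the endothelial score. In deviations from group means these were -0.77 and -0.35. The macrophages' part in the Slc40a1 values, and in those of Hmox1, which macrophages also make, was not tested. Nor was the part of endothelial cells.

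**Figure D2:**
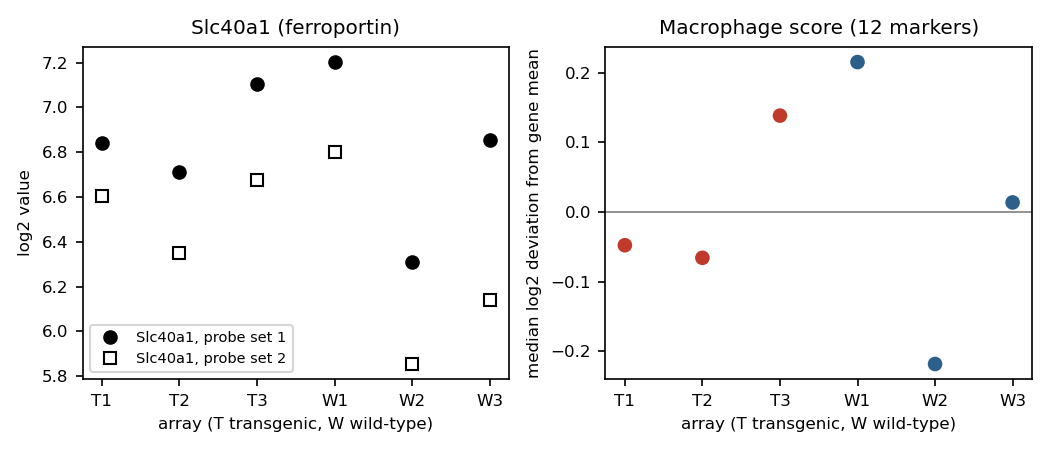
Left, log2 values of the brighter (filled) and dimmer (open) Slc40a1 probe sets on each of the 6 arrays. Right, the macrophage score of the same arrays in log2 units. Both are highest on W1 and lowest on W2, and T3 is the highest of the transgenic arrays in each.

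Alas1 encodes the housekeeping form of the enzyme that starts heme synthesis. It stood at 7.12, 7.25 and 7.39 in transgenic lenses, against 7.12, 7.21 and 7.24 in wild-type lenses. The difference was 0.060 ± 0.097 (SE), and the groups overlapped. A second probe set differed by -0.035 ± 0.098. The sign turned to -0.0092 without T3 and to -0.014 with the arrays' medians set equal.

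Fech, for ferrochelatase, was measured by 4 probe sets that did not move alike. The brightest stood at 8.02, 8.09 and 8.16 in transgenic lenses, against 7.98, 7.89 and 7.77 in wild-type lenses, a difference of 0.21 ± 0.09 (SE) without overlap. This difference did not pass the test over all genes, and it was 0.11 after centring on a common median. The second stood at 7.25, 6.27 and 6.60 in transgenic lenses, against 7.04, 6.50 and 6.93 in wild-type lenses, and differed by -0.12 ± 0.24 with wide spread in both groups. The third stood at 6.54, 5.93 and 6.29 in transgenic lenses, against 6.15, 5.56 and 5.29 in wild-type lenses. It gave the highest difference of the 4, 0.59 ± 0.23, with T2 under W1. The fourth lay below the median of all probe sets, at a mean of 3.92, and differed by 0.20 ± 0.17.

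Over all 17 probe sets, 15 lay above the median level, and 1 passed downward and 1 upward when every probe set was tested on its own. Of all 45037 probe sets, 2.21% passed downward and 1.47% upward. Differences were above 0 for 11 of the 17 and below 0 for 6. Apart from Hmox1, they ran from -0.13 for Blvra to 0.59 for Fech.

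**Figure D3:**
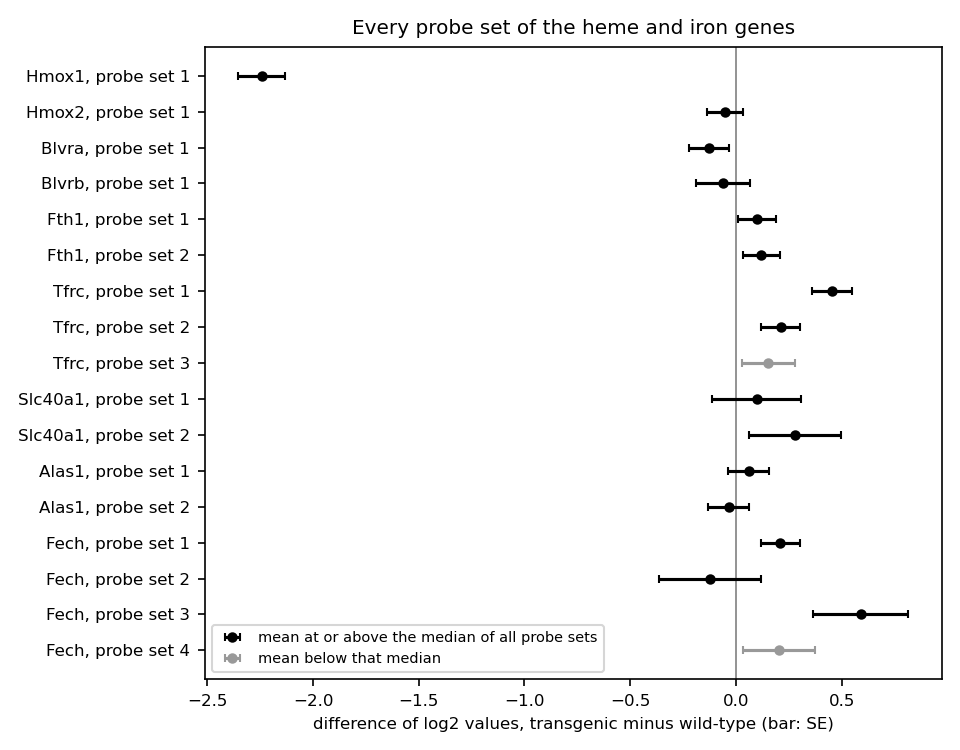
Difference of log2 values, transgenic minus wild-type (horizontal axis), with limma's SE as bars, for each of the 17 probe sets; probe sets of a gene are numbered from the brightest. Grey points lie below the median level. Hmox1 stands alone at -2.24, and all others lie between -0.13 and 0.59.

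The wider heme and iron pathways were described with 7 lists that hold 104 other genes, of which 94 were measured as single genes. In these, 1 gene rose and 3 fell (limma, adjusted p under 0.05), 1 of 94 and 3 of 94, beside 1.93% and 2.61% of all genes. At an unadjusted p under 0.05, 16 of 94 were higher and 9 of 94 lower, beside 11.5% and 10.9% of all genes (22.4% in either direction). Their median difference was 0.049, beside 0.011 over all genes. No list held more than 2 genes past the threshold, and the 4 calls did not hold when single arrays were left out. That of Slc25a37 was lost without any 1 of the 6 arrays, those of Slc46a1 (all but T1) and Ltf (all but W1) without 5, and that of Hfe without T1, T2, W2 or W3. All 4 were also lost with a replicate block.

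Heme synthesis showed the smallest differences. Of 10 measured genes other than Alas1 and Fech, 0 passed in limma and 0 had an unadjusted p under 0.05, beside 22.4% of all genes. All differences lay between -0.092 and 0.095. The smallest p-values belonged to Tmem14c (0.095), for a protein that moves a heme precursor into mitochondria, Uros (-0.092), for an enzyme that closes the precursor ring, and Clpx (0.091), for a chaperone that activates ALAS enzymes. Tmem14c turned to -0.017 after centring on a common median, and Uros to 0.13 with the mean of its probe sets. Alas2, the erythroid counterpart of Alas1 and outside the rule for named genes, differed by -0.077.

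Among 13 genes of heme transport and binding, 1 fell and 12 did not pass. In limma, 3 of 13 had an unadjusted p under 0.05, beside 22.4% of all genes. Slc46a1, for a transporter of folate that can also carry heme, stood at 6.25, 6.04 and 5.93 in transgenic lenses, against 6.57, 6.60 and 6.63 in wild-type lenses. All transgenic arrays lay under the wild-type arrays. It fell by 0.52 ± 0.10 (SE; limma adjusted p = 0.0316), a 1.44-fold difference, and a second probe set differed by -0.25. Hpx, for the heme-binding plasma protein hemopexin (0.35), and Lrp1, for the receptor that takes up hemopexin with its heme (0.40), did not pass. The Hpx probe set lay below the median level. A second Lrp1 probe set, below that level, differed by -0.22, and the mean of both gave 0.088.

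The regulators that respond to heme or turn on Hmox1 did not pass in limma: 0 of 10, with 2 at an unadjusted p under 0.05, beside 22.4% of all genes. Mafk, for a small partner protein of both NRF2 and BACH1, stood at 8.05, 7.93 and 7.99 in transgenic lenses, against 7.59, 7.76 and 7.45 in wild-type lenses. Its groups did not overlap, with a difference of 0.39 ± 0.10 (SE; limma adjusted p = 0.0761). Cul3, for the scaffold of the ligase that marks NRF2 for breakdown, differed by -0.32 on its brightest probe set and by 0.019 to 0.070 on the other 4. Keap1, for the adaptor of that ligase, differed by 0.23 on its brightest probe set and by -0.066 on another, with 0.082 for their mean. Bach1, for the heme-sensing repressor of Hmox1, and Nfe2l2, for its activator NRF2, are outside the rule for named genes and differed by -0.022 and 0.13.

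Other known targets of NRF2 and BACH1 had differences of -0.41 to 0.34. Of 13 measured, 0 passed in limma and 3 had an unadjusted p under 0.05, beside 22.4% of all genes. Their median was -0.15, and 10 of 13 lay below 0, as did 8672 of all 18193 genes. Gclc, for the catalytic subunit of glutathione synthesis, stood at 7.81, 7.52 and 7.43 in transgenic lenses, against 7.90, 8.14 and 7.94 in wild-type lenses, a difference of -0.41 ± 0.12 (SE). It had the lowest difference of the list and did not pass (limma adjusted p = 0.105). Taldo1, for an enzyme of the pentose phosphate pathway, differed by -0.28. Srxn1, for the enzyme that restores peroxiredoxins, differed by 0.34 on its brightest probe set and by -0.37, -0.17 and 0.032 on others.

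Iron uptake, storage and release held calls in both directions: of 19 genes, 1 rose, 1 fell and 17 did not pass. In limma, 7 of 19 had an unadjusted p under 0.05 (5 higher, 2 lower), beside 22.4% of all genes. Nothing is read from this share, since the lists were chosen with earlier results of these data known. Slc25a37, for mitoferrin, which carries iron into mitochondria, stood at 6.78, 6.87 and 6.88 in transgenic lenses, against 6.32, 6.34 and 6.54 in wild-type lenses. It rose by 0.44 ± 0.09 (SE; limma adjusted p = 0.0389), with no overlap between the groups. After centring on a common median it did not pass (limma adjusted p = 0.0513). Ltf, for the iron-binding protein lactoferrin, stood at 5.62, 5.47 and 5.53 in transgenic lenses, against 6.01, 6.62 and 6.31 in wild-type lenses. It fell by 0.77 ± 0.15 (SE; limma adjusted p = 0.0316). The transgenic mean, 5.54, lay close to the median of all probe sets, 5.34, and the wild-type mean was 6.31. Cybrd1, for an iron-reducing enzyme of the membrane, differed by 0.37, by -0.044 on a probe set below the median level, and did not pass.

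Of 10 genes of iron sensing and systemic control, 1 fell and 9 did not pass. In limma, 6 of 10 had an unadjusted p under 0.05 (4 higher, 2 lower), beside 22.4% of all genes. The lists were chosen with earlier results of these data known, so nothing is read from this share. Hfe, for the membrane protein that binds the transferrin receptor and is mutated in hemochromatosis, stood at 7.33, 7.13 and 7.26 in transgenic lenses, against 7.74, 7.90 and 8.14 in wild-type lenses. It fell by 0.68 ± 0.12 (SE; limma adjusted p = 0.0238), a 1.61-fold difference without overlap. A second Hfe probe set, at a mean of 4.02 and so below the median level, differed by -0.035. With the mean of both the call was lost (-0.36, limma adjusted p = 0.0778). Neo1, for a receptor that acts with hemojuvelin (0.30), and Hamp, for the iron hormone hepcidin (-0.36, below the median level), did not pass. Aco1, for the cytosolic aconitase that becomes an iron-regulatory protein when iron is low, had the highest difference of the list, 0.66 ± 0.23 (SE; limma adjusted p = 0.142), with overlapping groups; it is named after its value was seen. Ireb2, for the other iron-regulatory protein and likewise outside the rule, differed by 0.093.

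Iron-sulfur cluster assembly, the other main use of mitochondrial iron, had 0 of 19 genes past the limma threshold and 4 at an unadjusted p under 0.05, beside 22.4% of all genes. Glrx5, for a glutaredoxin that passes clusters on, stood at 10.14, 10.03 and 10.14 in transgenic lenses, against 9.81, 9.54 and 9.69 in wild-type lenses. The groups did not overlap, and the difference was 0.42 ± 0.10 (SE; limma adjusted p = 0.0537). It passed in limma with dim probe sets left out (adjusted p = 0.0406), with the mean of probe sets (0.0469) and with robust variances and a trend (0.022). It did not pass on the values as deposited (0.122) or with a common median (0.177). Hscb, for a cochaperone of cluster transfer, differed by 0.33. Nubp1, for a scaffold of cytosolic assembly, differed by -0.25, and by -0.37 and -0.49 on its other probe sets. With the mean of its probe sets it passed (-0.37, limma adjusted p = 0.0422).

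**Figure D4:**
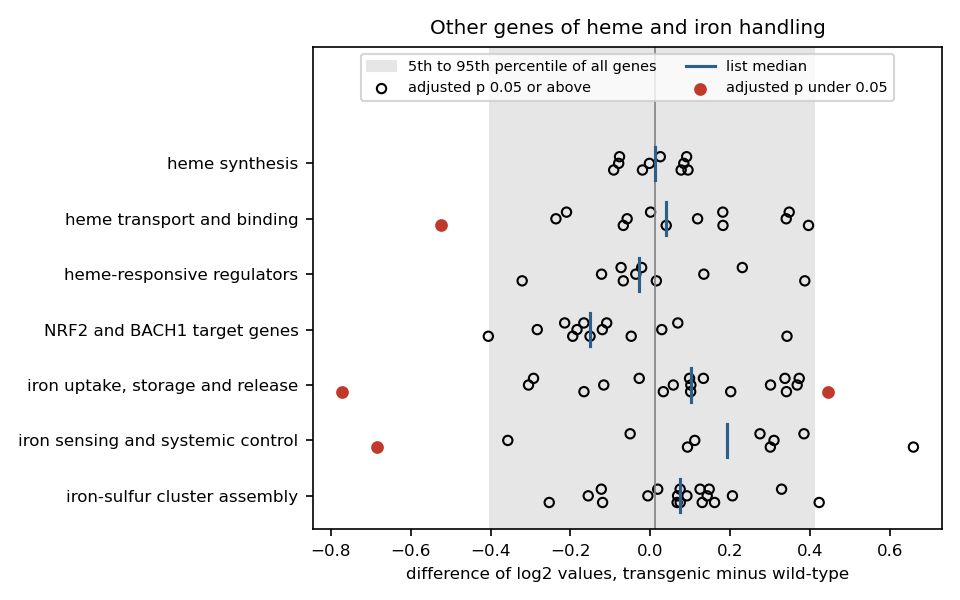
Difference of log2 values, transgenic minus wild-type (horizontal axis), for each measured gene of the 7 lists (rows). Filled points passed the limma threshold, blue bars are list medians and the grey band holds the 5th to 95th percentile of all genes, -0.40 to 0.41. The 4 filled points are Slc46a1, Ltf, Hfe and Slc25a37, and heme synthesis genes lie closest to 0.

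Signals of other cell types are given for the whole lists. Beside their counts, 22.4% of all genes had an unadjusted p under 0.05 in limma. Of all genes, 1.93% passed the threshold upward and 2.61% downward. Of 16 erythroid markers, 10 were measured, 4 of them above the median level and 0 past the limma threshold (2 at an unadjusted p under 0.05), with sums of 368 to 402 in transgenic and 369 to 388 in wild-type lenses. Their brightest, the globin gene Hbb-b2, averaged 6.29 in transgenic and 6.09 in wild-type lenses. Over the 10 markers, differences were above 0 for 5 and below 0 for 5, with a median of 0.021. Endothelial markers summed to 1329 to 1557 in transgenic and 1343 to 1729 in wild-type lenses. Differences were below 0 for 6 of the 8 and above 0 for 2, with a median of -0.16. Of the 8, 1 passed, the angiopoietin receptor gene Tek, which rose by 0.49 (limma adjusted p = 0.0465). Neural retina markers were lower in transgenic lenses for 9 of 9 measured, with sums of 1192 to 2015 against 1703 to 2412 in wild-type lenses and a median of -0.39. The RNA-binding protein gene Elavl4 fell by 0.72 (limma adjusted p = 0.0117) and the other 8 did not pass, with 4 of the 9 at an unadjusted p under 0.05. By array the retina sums were 1192, 2015 and 1516 on T1, T2 and T3, against 2412, 2306 and 1703 on W1, W2 and W3. Pigment cell and ciliary markers summed to 1676 to 5082 in transgenic and 1679 to 2122 in wild-type lenses. T2 was the highest, T3 followed at 2581, and T1 was the lowest of all. These markers were higher in transgenic lenses for 8 of 8, with a median of 0.45, and 0 had an unadjusted p under 0.05 (limma). Pearson r of Hmox1 over the 6 arrays was 0.67 with a like score of the retina list and -0.54 with that of the pigment list. In deviations from group means these were -0.26 and 0.033. The part of retina or pigment cell transcripts in the Hmox1 difference was not tested.

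The genes nearest to Hmox1 in profile were found from the root mean square distance between log2 values of the 6 arrays, each gene centred on its own mean. Genes with provisional symbols, such as Rik, Gm numbers or LOC, were left out. Of the 11632 other genes at or above the median level, the nearest were Gadd45b (0.090), Cabp5 (0.11), Myo7b (0.11), Dipk2a (0.14) and Prdm16 (0.16). Gadd45b, which responds to stress and DNA damage, stood at 8.59, 8.39 and 8.29 in transgenic lenses, against 10.42, 10.59 and 10.68 in wild-type lenses, a difference of -2.14. Other Gadd45b probe sets differed by -2.35 and, at a mean of 5.92, by only -0.69. A second Cabp5 probe set differed by -1.89, beside -2.44 on the brightest. Dipk2a stood at 7.93, 7.84 and 7.85 in transgenic lenses, against 9.72, 9.95 and 9.97 in wild-type lenses, a difference of -2.01. Its other probe sets differed by -1.51 and, below the median level, by 0.55. Prdm16, for a zinc finger regulator of transcription, differed by -2.05, with 3 further probe sets at -2.11, -2.54 and -2.38. In all 5 genes, as in Hmox1, W1 was the lowest of the wild-type arrays. The genes were picked for closeness over these same arrays, so this shared place of W1 is no separate finding. The profile is set mainly by the genotype difference, so the list names genes lower by a like amount on their brightest probe sets. No test of their difference is given. With any 1 array left out, 4 or 5 of these 5 were again among the nearest 5.

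**Figure D5:**
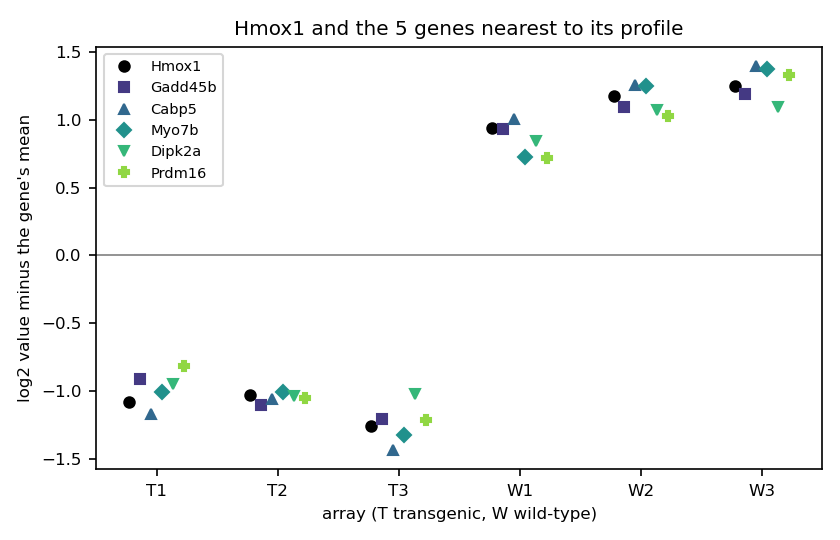
Log2 value minus the gene's own mean (vertical axis) on each of the 6 arrays for Hmox1 and the 5 genes nearest to its profile. All 6 genes lie below 0 on the transgenic arrays and above 0 on the wild-type arrays, and W1 is the lowest wild-type array for each. The 5 genes were picked for closeness to Hmox1 on these same arrays.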

How the data were processed

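The authors deposited a table of log2 values, 1 for each probe set on each array. The scale was read from the range of values. For their summary and normalization steps the method was not given in the sources used here. Per the labels' protocols, labelling used in vitro transcription. The 64 control probe sets were set aside, and the other 45037 were quantile normalised (limma 3.58.1, R 4.3.3), because upper quartiles differed by 0.120. Names came from the platform's GEO annotation and were updated through RefSeq of GRCm38.p6 (99.4% of 34945 probe sets with 1 symbol matched; 932 had several and 9160 none). Each of 18193 genes was represented by its brightest probe set. Genotypes were compared with limma (lmFit, eBayes; Benjamini-Hochberg over all genes, threshold 0.05), tested on simulated data. Design, lists and alternatives were set down in writing, but members and lists were chosen with earlier results of these data known. Named genes are the members and, of each list, the genes past the threshold (at most 6) and the 3 with the smallest p. Also named are Foxe3, the 5 genes nearest to Hmox1, and the markers past the threshold (at most 4 a list). The rule also held the brightest marker of each list, of which only the erythroid one is named. Replicate numbers do not pair the arrays by the check given with the settings.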

Additional observations from a re-analysis of the deposited data

How the results depend on the processing

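The Hmox1 difference, by which the gene was chosen, is a description: -2.24 in the report, -2.31 on the values as deposited, -2.35 with a common median and -2.33 to -2.17 with 1 array left out. Other alternatives were the mean of probe sets, each probe set tested singly, dim probe sets left out, robust variances with a trend, and a replicate block. Members past the threshold upward, 1 in the report, were 0 on the values as deposited, with a common median, with the mean of probe sets, with the replicate block and with any array left out (limma). In these settings 1 or 2 of 9 were higher at an unadjusted p under 0.05 (limma), beside 1428 to 1991 of all 18193 genes. Other heme and iron genes past the threshold upward, 1 in the report, were 0 with a common median, 2 with dim probe sets left out, 2 with the mean of probe sets, 2 with robust variances and a trend (Glrx5 was the gene gained each time), 0 with the replicate block and 0 with any array left out (limma). In the settings with 0, 11 to 17 of 94 were higher at an unadjusted p under 0.05 (limma), beside 1428 to 1991 of all 18193 genes. Those past it downward, 3 in the report, were 0 with the replicate block and 0 to 2 with 1 array left out (limma). With the block, 11 of 94 were lower at an unadjusted p under 0.05 (limma), beside 1854 of all 18193 genes. Where leaving out 1 array gave 0, 6 to 10 of 94 were lower in this way, beside 1550 to 1683 of all genes. With the mean of probe sets, 3 passed the threshold downward, but Nubp1 stood in for Hfe. Of all genes, 69 rose and 154 fell with the replicate block, and 70 to 249 rose and 156 to 385 fell with 1 array left out, beside 352 and 475 in the report. With a common median 254 rose and 673 fell. Signs of differences that did not pass turned for Tmem14c, to -0.017 (common median), and for Uros, to 0.13, and Srxn1, to -0.040 (mean of probe sets). Among the members, they turned for Alas1 (-0.014 with a common median, -0.0092 without T3), Blvrb (0.020 without T1), Hmox2 (0.0022 without W3) and Slc40a1 (-0.011 without T3, -0.14 without W2). Same-numbered arrays correlated at -0.052, 0.084 and 0.028 in their deviations from group means, and not every array correlated best with its own number, so the block is not read as a pairing. The nearest genes to Hmox1 shared 4 or 5 of 5 in each setting tried, a check added after seeing the data. A transgenic signal near the median of all probe sets limits Ltf, and the range's upper end limits Fth1. The causes were not tested, except that fewer arrays were used where 1 was left out.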
